A study of Mus musculus with 12 samples.

Results

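The 10 genes described here encode the enzymes that turn farnesyl diphosphate and squalene into cholesterol: Fdft1, Sqle, Lss, Cyp51, Tm7sf2, Msmo1, Nsdhl, Hsd17b7, Ebp and Dhcr7. They were found through the probes whose array annotation names 1 of these genes and no other, which gave 11 of the 36227 probes, with 2 probes for Cyp51 and 1 for each of the other genes. They were measured in whole ovaries of 180-day old lethal yellow (LY) mice (C57BL/6J Ay/a), 180-day old black littermates (a/a), 90-day old LY mice and 90-day old black mice, with 3 mice a group and 1 one-colour CodeLink array a mouse. The labels write the strain as C56BL/6J. Ay is a deletion that puts agouti under the promoter of the neighbouring gene Raly, so the LY mice carry 1 mutant allele in every tissue, and they become obese with age. All 12 mice had received the GnRH antagonist Antide at 10 μg/g body weight on days 1 and 4, then equine chorionic gonadotropin (eCG) at 1 IU per 5 g, and the ovaries were taken on day 7, 36 h after eCG. The question of the study was whether ovarian gene expression differs between LY and black mice before and after the LY mice have become heavier.

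Cholesterol is the substrate of all ovarian steroids. Cells of the ovary take it up from lipoproteins and also make it. In the synthetic route squalene synthase joins farnesyl units to squalene, squalene is oxidized and closed into the ring system of lanosterol, and the later enzymes remove methyl groups and shift or reduce double bonds in the membrane of the endoplasmic reticulum. The genes of this route are classical targets of SREBP-2, a transcription factor that is released when sterols are scarce. The product of Cyp51 is itself a meiosis-activating sterol in follicles, and Hsd17b7 also reduces estrone to estradiol and is known in rodents as a gene of the corpus luteum.

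Upstream sequences are shown for Cyp51 and Lss, the members that passed the test at 180 days, for Msmo1, which lay just outside its threshold, and for Hsd17b7, whose difference at 90 days was the widest of the 10. Cyp51 lies on chr5:4080674-4104697 (minus strand), Lss on chr10:76531565-76557139 (plus strand), Msmo1 on chr8:64718123-64733578 (minus strand) and Hsd17b7 on chr1:169949535-169969242 (minus strand) in GRCm38.p6. The stretches are RefSeq promoter sequence of that build, read 5′ to 3′ from 250 bases before the annotated start, and for Lss and Hsd17b7 the last 40 and 37 bases were left out because they fall inside the annotated gene. They cover chr5:4104698-4104947 for Cyp51, chr10:76531355-76531564 for Lss, chr8:64733579-64733828 for Msmo1 and chr1:169969243-169969455 for Hsd17b7. Capitals mark TCACCNCA, a form of the sterol response element, CCAAT, the box bound by NF-Y, and TGACG, a core of the cAMP response element, on either strand.
Cyp51: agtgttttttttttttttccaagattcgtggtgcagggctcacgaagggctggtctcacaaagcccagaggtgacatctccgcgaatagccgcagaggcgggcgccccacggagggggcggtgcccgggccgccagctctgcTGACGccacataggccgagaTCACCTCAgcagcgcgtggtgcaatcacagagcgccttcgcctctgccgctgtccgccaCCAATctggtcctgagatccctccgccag
Lss: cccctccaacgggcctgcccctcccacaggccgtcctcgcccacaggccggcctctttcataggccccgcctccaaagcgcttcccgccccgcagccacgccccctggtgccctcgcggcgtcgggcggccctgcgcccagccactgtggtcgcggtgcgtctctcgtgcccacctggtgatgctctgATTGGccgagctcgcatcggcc
Msmo1: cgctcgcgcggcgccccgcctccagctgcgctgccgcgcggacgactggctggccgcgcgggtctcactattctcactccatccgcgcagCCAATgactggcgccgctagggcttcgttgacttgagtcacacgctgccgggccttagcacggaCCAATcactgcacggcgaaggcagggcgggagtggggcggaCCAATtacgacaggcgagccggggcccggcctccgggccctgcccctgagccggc
Hsd17b7: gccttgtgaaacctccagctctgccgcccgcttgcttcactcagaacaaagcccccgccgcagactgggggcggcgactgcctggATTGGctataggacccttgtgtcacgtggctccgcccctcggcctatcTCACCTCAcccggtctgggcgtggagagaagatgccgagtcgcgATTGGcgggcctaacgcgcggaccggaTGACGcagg
Cyp51 and Hsd17b7 held all 3 motifs, Lss held 1 CCAAT box and Msmo1 held 3. The promoter table matched 8 of the 10 genes, with 10 windows of 250 bases, since Dhcr7 has 3 annotated starts. CCAAT was found in 8 of the 10 windows and at least once in each of the 8 genes, against 33.8% of 32851 windows of the same length over all genes. TCACCNCA was found in 2 of the 10 windows (3.61% of all windows) and TGACG in 3 (17.8% of all windows), and no matches overlapped. These matches are descriptions of the letters in the window.

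Values are relative intensity units, in which each array has a median of 1, and 0.2 units was the limit of sensitivity of the arrays. They were compared on the log2 scale with limma in 1 model of all 12 arrays, over the 31359 probes that reached 0.2 units on average in at least 1 group, and adjusted over all of these probes, with a threshold of 0.05. All 11 member probes passed this filter, and each read at least 0.2 units on every array. The 12 arrays were alike in the share of values at or above the limit (80.8% to 83.3%). Arrays of 1 group correlated at 0.970 or more, and arrays of different ages at 0.938 or less. Agouti read 95.7 to 111 units on the LY arrays and 0.169 to 0.368 on the black arrays, and Raly 7.75 to 10.9 and 13.0 to 23.6 units, so every array matched the genotype of its label. Agouti and Raly do not check the age. The arrays of each age were run as a set of their own, so an effect of age and one of the array run cannot be told apart. Oocyte and granulosa cell markers, which define ovary, were present on all arrays. In whole ovaries fewer cells of a type and less RNA per cell cannot be told apart.

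At 180 days all 10 genes had a higher estimate in LY ovaries, and 8 of them separated the 3 LY arrays from the 3 black arrays without overlap. Over all probes tested 55.9% had a higher estimate and 14.2% lay without overlap above the black arrays, and no member lay without overlap below them (8.36% of all probes). Lanosterol demethylase (Cyp51) and lanosterol synthase (Lss) rose past the threshold, as did 0.0415% of all probes, and no member fell (0.00319% of all probes). At an unadjusted p under 0.05, 8 members were higher and none lower, against 7.05% and 4.91% of all probes. The median difference of the 10 genes was 0.77 on the log2 scale, beside 0.03 over all probes. Cyp51 and Lss were at least 2-fold higher, as were 0.561% of all probes.

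Fdft1, squalene synthase, which commits farnesyl diphosphate to sterols, read 11.7, 8.86 and 10.8 units in LY ovaries, against 7.18, 6.59 and 5.30 in black ovaries of 180 days. The lowest LY value lay above the highest black value, and the log2 difference was 0.72 (standard error 0.16, adjusted p = 0.150). Sqle, squalene epoxidase, a flux-controlling step, was the dimmest member with 0.756, 0.744 and 0.958 units in LY ovaries and 0.485, 0.444 and 0.504 in black ovaries. The groups did not overlap for Sqle either (log2 difference 0.77, standard error 0.17, adjusted p = 0.150). Lss, which closes oxidosqualene to lanosterol, read 5.76, 3.71 and 5.05 units in LY ovaries and 2.21, 2.33 and 2.15 in black ovaries. Its black values were close together while the LY values were spread, and the log2 difference of 1.09 (standard error 0.15) passed the test (adjusted p = 0.0394 from limma).

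Cyp51, which removes the 14-alpha methyl group of lanosterol, had the widest difference of the 10, with 36.4, 29.4 and 41.2 units in LY ovaries and 14.8, 14.0 and 13.9 in black ovaries. All LY arrays lay far above a tight black group, and the difference of 1.31 on the log2 scale (standard error 0.14, 2.48-fold) passed the test (adjusted p = 0.0289 from limma). By unadjusted p it stood 2nd of all 31359 probes, and 0.252% of the probes had a larger difference. The second, dimmer Cyp51 probe read 2.15, 1.34 and 2.45 units in LY ovaries and 0.781, 0.957 and 0.896 in black ovaries, again without overlap (log2 difference 1.13, standard error 0.21, adjusted p = 0.115). Tm7sf2, a sterol C14-reductase that acts after Cyp51, read 40.3, 35.4 and 48.6 units in LY ovaries, against 22.3, 27.8 and 22.3 in black ovaries. Its groups did not overlap and the log2 difference was 0.78 (standard error 0.17, adjusted p = 0.146).

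The demethylation at carbon 4 uses Msmo1, Nsdhl and Hsd17b7 in turn. Msmo1, the methyl sterol oxidase, read 33.1, 27.2 and 41.7 units in LY ovaries and 18.0, 16.2 and 16.1 in black ovaries of 180 days. No LY array came near the black range, and the log2 difference of 1.00 (standard error 0.15) lay just outside the threshold (adjusted p = 0.0512). Nsdhl, the decarboxylating dehydrogenase, read 22.8, 21.3 and 29.1 units in LY ovaries and 14.4, 11.3 and 13.2 in black ovaries, again without overlap (log2 difference 0.91, standard error 0.16, adjusted p = 0.105). Hsd17b7, the ketoreductase that completes the cycle, read 2.80, 1.76 and 2.32 units in LY ovaries and 1.86, 2.33 and 1.56 in black ovaries. Here the groups overlapped, and the log2 difference of 0.25 had a 95% interval of -0.39 to 0.89.

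The last members move and reduce ring double bonds. Ebp, the sterol isomerase, read 13.4, 11.1 and 12.5 units in LY ovaries and 9.04, 9.88 and 8.95 in black ovaries. The difference was small but without overlap (0.41 on the log2 scale, standard error 0.10, adjusted p = 0.159). Dhcr7, which makes cholesterol from 7-dehydrocholesterol, read 2.81, 2.67 and 3.03 units in LY ovaries and 2.72, 2.19 and 2.70 in black ovaries. The groups overlapped and the 95% interval of its log2 difference, 0.17, ran from -0.28 to 0.62. The 95% intervals of Hsd17b7, Ebp and Dhcr7 ended at 0.89, 0.62 and 0.62, below that of the brighter Cyp51 probe, which began at 0.99. The interval of the second Cyp51 probe began at 0.66, above the ends of Ebp and Dhcr7 but not of Hsd17b7. The same held for Lss and Msmo1, which began at 0.77 and 0.67. The intervals of Hsd17b7, Ebp and Dhcr7 overlapped those of Fdft1, Sqle, Tm7sf2 and Nsdhl, which began at 0.37, 0.39, 0.40 and 0.56. A test between members was not run.

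**Figure D1:**
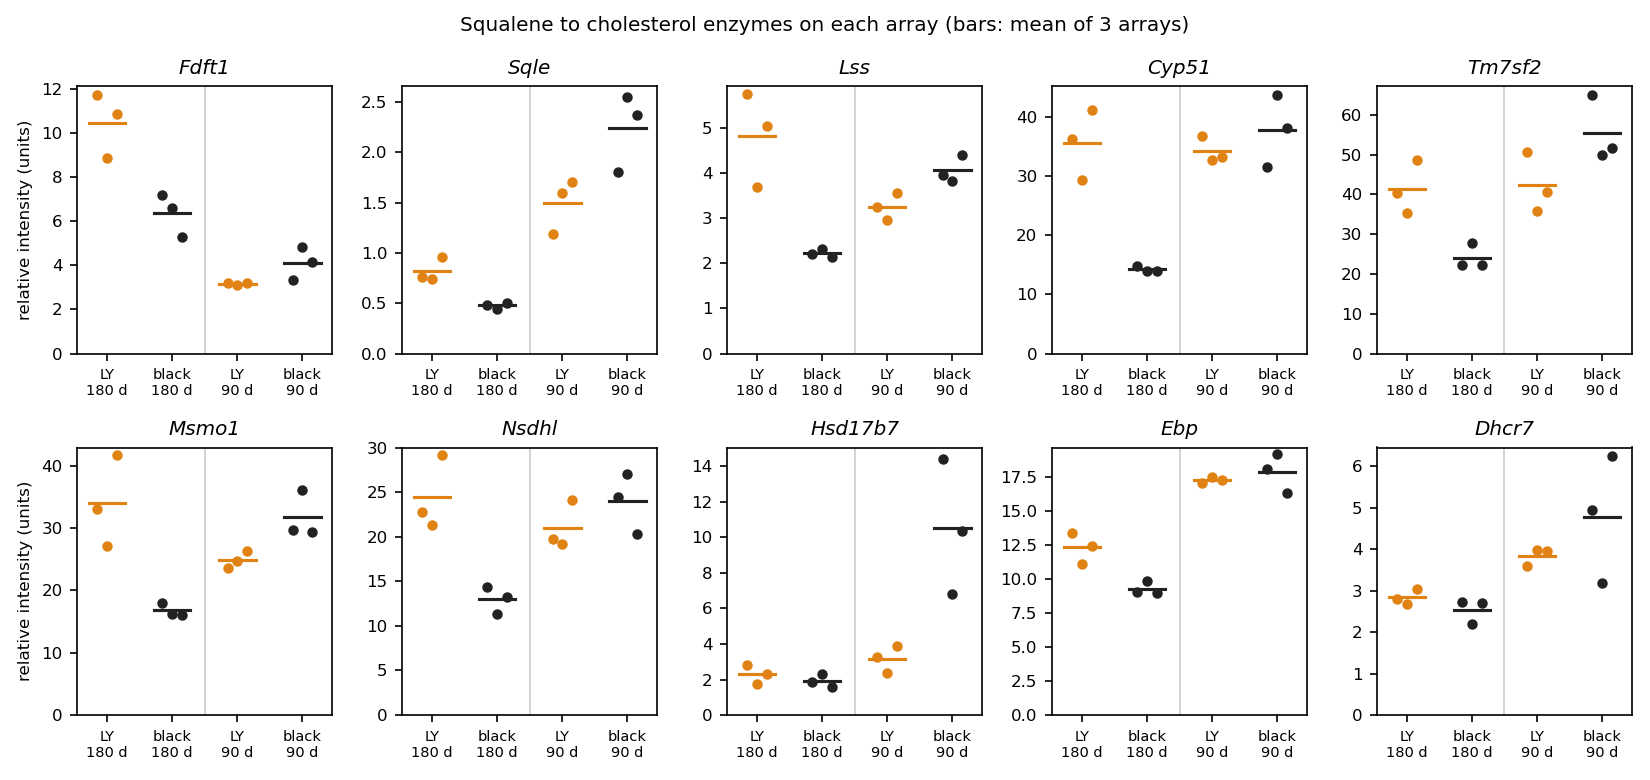
Relative intensity (units, linear axes from 0) of the 10 genes on each of the 12 arrays, 1 point per mouse with LY in orange and black in black, and a bar at the mean of each group of 3. At 180 days Cyp51 lies at 29.4 to 41.2 units in LY and 13.9 to 14.8 in black ovaries, while Hsd17b7 stands apart at 90 days, with 2.37 to 3.89 units in LY and 6.81 to 14.4 in black ovaries.

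The calls rested on few arrays. Cyp51 lost its call without any 1 of the 3 black arrays of 180 days, without LY replicate 3 of 180 days or without LY replicate 2 of 90 days, and Lss kept its call only when LY replicate 2 of 180 days was left out. The count of 2 became 3 without LY replicate 2 of 180 days, 1 without LY replicate 1 of 180 days, LY replicate 1 or 3 of 90 days or any 1 black array of 90 days, and 0 in the other 5 cases. Overlap was absent in 8 or 9 members in each of these 12 cases, a count that leaving out an array cannot lower. No marker of granulosa cells, oocytes or theca cells passed the test at 180 days. The summed level of 9 measured granulosa cell markers was 181 to 243 units in LY and 256 to 336 in black ovaries of 180 days, and that of 10 oocyte markers 42.7 to 62.3 and 63.4 to 84.2 units, while the sums of 4 theca cell markers overlapped (165.5 to 264 and 139.8 to 204 units). At an unadjusted p under 0.05, 3 granulosa cell and 5 oocyte markers were lower and none higher, against 4.91% and 7.05% of all probes. At 90 days 2 granulosa cell markers were higher and 1 oocyte marker lower at this level, against 5.21% and 8.06% of all probes. Also at this level, the difference of LY from black was lower at 180 than at 90 days in 5 granulosa cell and 5 oocyte markers (4.10% of all probes). Their part in the result was not tested. Of 6 adrenal cortex markers 4 could be read here, and none of these 4 passed the test. Their summed level was 1.44 to 1.99 units in LY and 1.68 to 1.87 in black ovaries of 180 days. No probe was annotated with Cyp11b1 or Akr1b7 alone, so these were left out. The paper lists Akr1b7 among the genes higher in 180-day LY ovaries. Cyp11b2, aldosterone synthase, read 0.435 to 0.612 units in LY and 0.319 to 0.454 in black ovaries (log2 difference 0.46, adjusted p = 0.369), and Hsd3b6 0.589 to 1.17 and 1.05 to 1.11 units. Cyp21a1 and Mc2r lay at or near the limit of sensitivity, at 0.150 to 0.167 and 0.140 to 0.250 units in LY and 0 to 0.242 and 0.132 to 0.233 in black ovaries.

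At 90 days the 10 genes had lower estimates in LY ovaries, although Cyp51 and Ebp turned above 0 with quantile normalization (0.073 and 0.052), Cyp51 also with the mean of its 2 probes (0.067) and Ebp without black replicate 2 of 90 days (0.011). Over all probes 49.1% had an estimate above 0. In 5 members, Fdft1, Sqle, Lss, Msmo1 and Hsd17b7, every LY array lay below every black array, as did 9.56% of all probes, and in none above (6.90%). No member passed limma's test (0.0383% of all probes were lower and 0.00638% higher), and 5 were lower and none higher at an unadjusted p under 0.05, against 8.06% and 5.21% of all probes. The methods' t-test called 3 members lower without adjustment, where it called 2799 probes in either direction, and none with it, where it called 1 probe. The median difference of the 10 genes was -0.33 on the log2 scale.

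Hsd17b7 had the widest difference at this age, with 3.24, 2.37 and 3.89 units in LY ovaries and 14.4, 6.81 and 10.4 in black ovaries. The LY values were less than those of any black mouse, and the ratio of the means was 0.301. The log2 difference was -1.70 (standard error 0.29) and fell short of the threshold (adjusted p = 0.0773), while 108 of the 31359 probes had a lower difference. It did pass with a floor of 0.2 units (adjusted p = 0.0363), with values of at least 0.2 units required on all arrays (adjusted p = 0.0184) and with an intensity trend (adjusted p = 0.0173).

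Sqle read 1.19, 1.59 and 1.70 units in LY ovaries of 90 days and 1.80, 2.55 and 2.38 in black ovaries. The ranges nearly met, and the log2 difference was -0.59 (standard error 0.17, 95% interval -0.97 to -0.21), which did not pass the test. Fdft1 read 3.19, 3.09 and 3.20 units in LY ovaries, against 3.33, 4.83 and 4.16 in black ovaries, with a log2 difference of -0.36 (adjusted p = 0.368). Lss again separated the groups, with 3.26, 2.96 and 3.56 units in LY and 3.96, 3.84 and 4.40 in black ovaries (-0.32, adjusted p = 0.387). Msmo1 read 23.5, 24.7 and 26.3 units in LY and 29.6, 36.2 and 29.4 in black ovaries (-0.35, adjusted p = 0.349). These 3 enzymes were modestly lower on every LY array, and none of them passed the test.

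For the remaining members the groups overlapped at 90 days. Cyp51 read 36.9, 32.8 and 33.3 units in LY ovaries and 31.5, 43.8 and 38.2 in black ovaries, a log2 difference of -0.13 with a 95% interval of -0.45 to 0.19. Its second probe had an estimate on the other side of 0 (0.26, with an interval of -0.20 to 0.73). Tm7sf2 read 50.5, 35.9 and 40.5 units in LY and 65.1, 49.9 and 51.6 in black ovaries (-0.40, adjusted p = 0.353). Nsdhl, Ebp and Dhcr7 had log2 differences of -0.19, -0.04 and -0.27, each with a 95% interval that held 0.

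**Figure D2:**
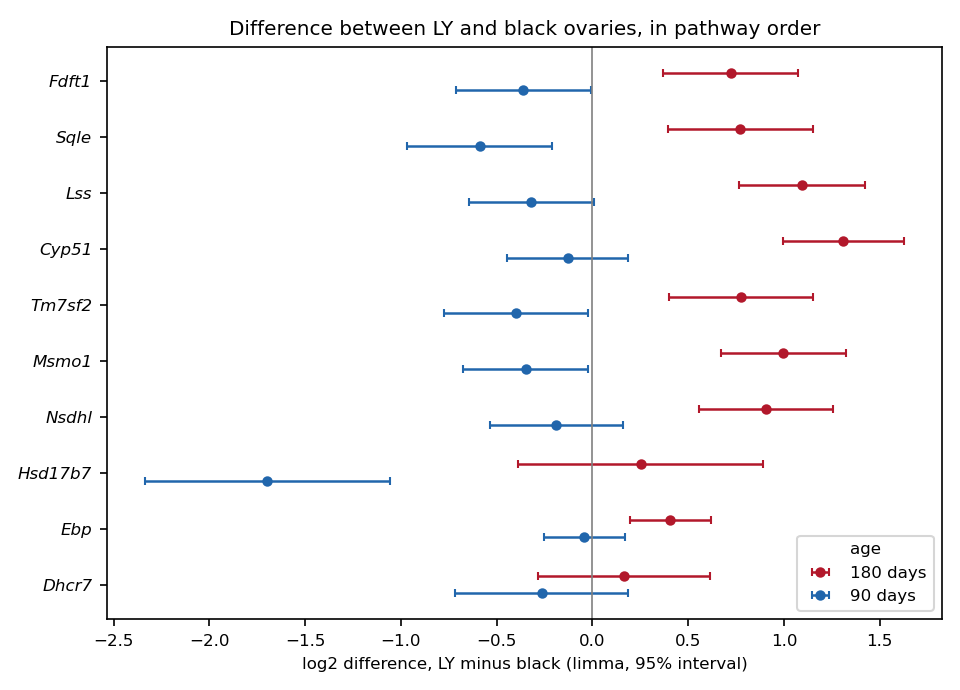
Log2 difference of LY minus black ovaries (x axis) for the 10 genes in pathway order, at 180 days in red and at 90 days in blue, with 95% intervals from limma that are not adjusted for the number of probes. At 180 days 8 of 10 intervals lie above 0, and at 90 days 5 of 10 lie below 0, with Hsd17b7 at -1.70.

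The change of the difference with age was tested directly as the interaction in the same model. It was positive for all 10 genes, that is, the difference of LY from black was higher at 180 than at 90 days (54.1% of all probes). At an unadjusted p under 0.05 it was positive in 9 and negative in none (8.01% and 4.10% of all probes). After adjustment no member and none of the 31359 probes passed (0% in either direction). The adjusted p of Cyp51 was 0.0704 (1.44 on the log2 scale, standard error 0.20), of Lss 0.0718 (1.41, standard error 0.21) and of Msmo1 0.0791 (1.35, standard error 0.21). Hsd17b7 had the widest interaction, 1.95 (standard error 0.41, adjusted p = 0.110), carried by its difference at 90 days. Dhcr7 was the member without a nominal interaction (0.43, 95% interval -0.21 to 1.07). With values of at least 0.2 units required on all arrays, or with an intensity trend, 8 of the 10 passed, every member but Ebp and Dhcr7, among 157 and 198 probes called in either direction. With a floor of 0.2 units or a pseudocount of 0.1 units Lss, Cyp51 and Msmo1 passed, among 18 and 21 probes. Without LY replicate 2 of 180 days Lss passed (adjusted p = 0.0277). In 4 members, Fdft1, Sqle, Lss and Msmo1, every LY array lay above the black arrays at 180 days and below them at 90 days, as in 1.82% of all probes.

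The order of the 4 groups was not the same in each gene. Cyp51 averaged 35.7 ± 5.92 units in 180-day LY, 14.2 ± 0.482 in 180-day black, 34.3 ± 2.27 in 90-day LY and 37.8 ± 6.15 in 90-day black ovaries (SD, n = 3 mice each). The 180-day black group was thus the one that stood apart, and the other 3 groups overlapped. Tm7sf2, Msmo1 and Nsdhl also had their lowest group mean in 180-day black ovaries, at 24.1 ± 3.22, 16.8 ± 1.08 and 13.0 ± 1.52 units, and so did Lss at 2.23 ± 0.0918 (SD, n = 3 each). In these 5 genes, and in Sqle and Ebp, no array of another group came as low as any 180-day black array. Sqle, Ebp and Dhcr7 had their lowest mean in 180-day black ovaries too, at 0.477 ± 0.0307, 9.29 ± 0.515 and 2.54 ± 0.302 units (SD, n = 3 each). In these genes both 180-day groups lay below both 90-day groups. Fdft1 ran the other way, with 10.5 ± 1.45 units in 180-day LY and 6.35 ± 0.962 in 180-day black ovaries, above 3.16 ± 0.0634 in 90-day LY and 4.11 ± 0.751 in 90-day black ovaries. In Hsd17b7 the 90-day black group stood alone at 10.5 ± 3.81 units, and the other 3 group means lay between 1.92 and 3.17, with 180-day black the lowest.

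Set against the 90-day arrays of the same genotype, LY ovaries of 180 days had log2 differences from -0.86 (Sqle) to 1.72 (Fdft1). Black ovaries had -0.87 or less in 8 of the 10 genes, -0.86 in Lss and 0.64 in Fdft1. Over all probes the interquartile range of these differences lay between -0.30 and 0.48 in LY and between -0.32 and 0.46 in black mice. Because age and array run coincide, these values are levels side by side and were not tested. 

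**Figure D3:**
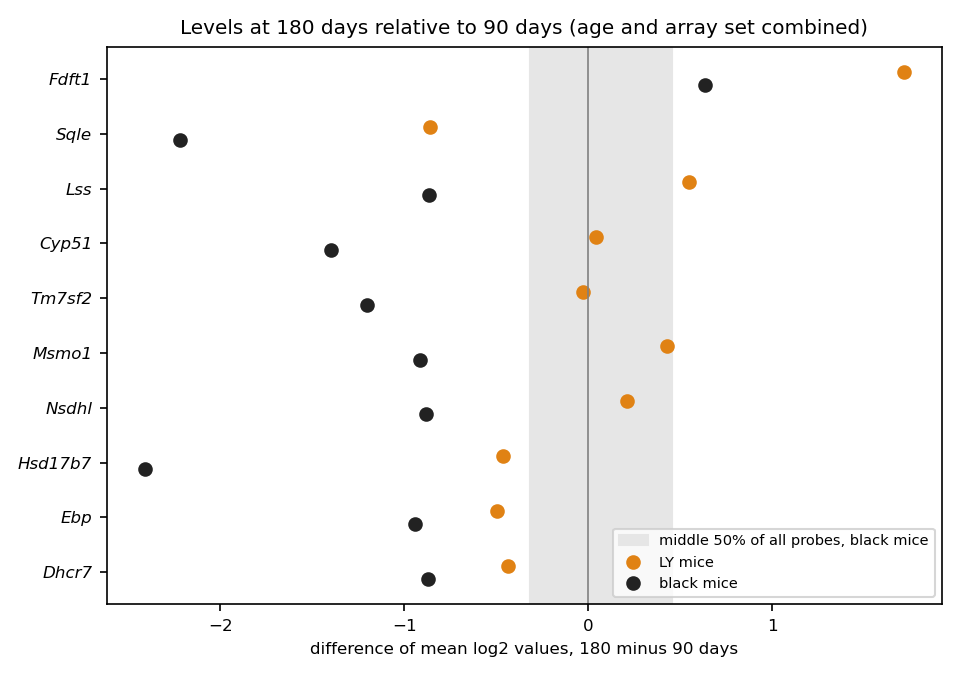
Difference of mean log2 values, 180 minus 90 days (x axis), for each of the 10 genes in LY mice (orange) and black mice (black), with the interquartile range of all probes in black mice shaded. Fdft1 is the only gene above 0 in black mice (0.64), and Hsd17b7 (-2.41) and Sqle (-2.22) lie farthest below.

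Hsd17b7 was set beside the luteal markers because it is a luteal gene in rodents. The paper reports, from preliminary unpublished histology, that ovaries suppressed with Antide held no corpora lutea. Of 5 luteal markers 3 were measured. Ptgfr, the receptor of the luteolytic prostaglandin, read 4.40, 3.67 and 6.23 units in LY ovaries of 90 days and 13.6, 10.2 and 13.6 in black ovaries. It did not overlap and did not pass the test (-1.41 on the log2 scale, standard error 0.51, adjusted p = 0.282), and its dimmer probe gave -0.88 (adjusted p = 0.189). Akr1c18, which inactivates progesterone, read 1.94, 1.96 and 1.47 units in LY and 2.75, 2.42 and 4.63 in black ovaries of 90 days, also without overlap (-0.82, adjusted p = 0.708). Parm1 read 5.17, 4.36 and 8.94 units in LY and 11.6, 13.5 and 7.93 in black ovaries (-0.87, adjusted p = 0.202), and its dimmer probe, which did not overlap, gave -1.20 (adjusted p = 0.0837). The summed level of the 3 markers was 9.99 to 16.6 units in LY and 26.1 to 27.9 in black ovaries of 90 days. At 180 days, where Hsd17b7 did not separate the groups, the sums were 6.66 to 10.9 in LY and 8.84 to 37.6 in black ovaries. Akr1c18, Ptgfr and Parm1 had log2 differences of -1.97, -0.48 and -0.08 at this age, beside 0.25 for Hsd17b7, and none passed the test. The dimmer Parm1 probe gave 0.09. Black replicate 3 of 180 days read 25.7 units for Akr1c18 and 7.09 for Ptgfr, but 1.56 for Hsd17b7. The part of these markers in the values of Hsd17b7 was not tested.

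**Figure D4:**
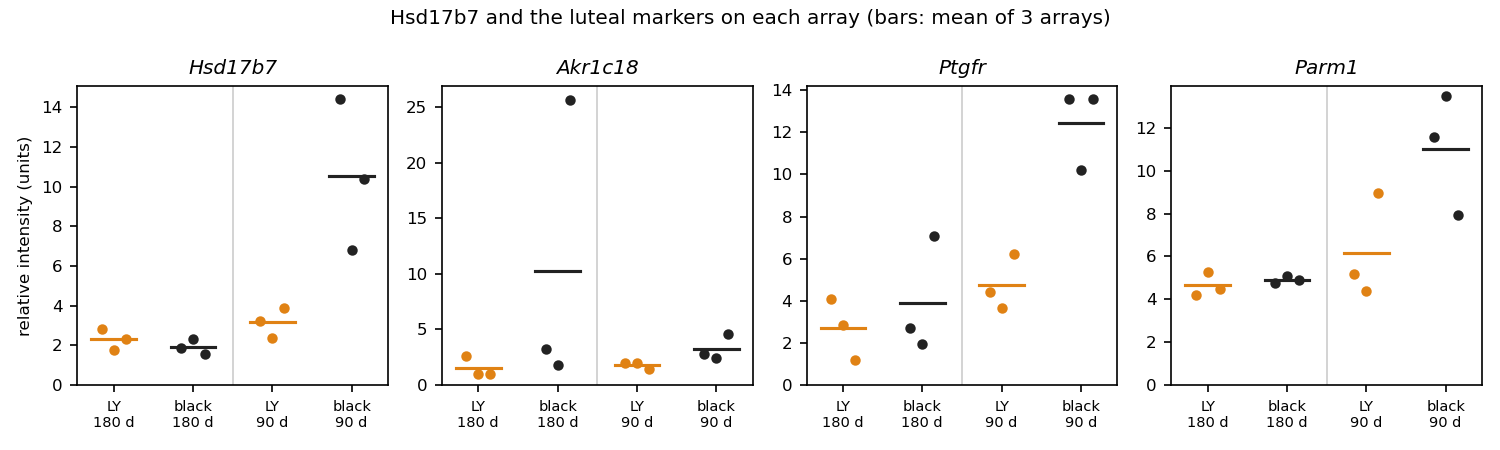
Relative intensity (units, linear axes from 0) of Hsd17b7 and of the measured luteal markers Akr1c18, Ptgfr and Parm1 on each array, LY in orange and black in black, with bars at the mean of 3 arrays. In 90-day LY ovaries Hsd17b7, Akr1c18 and Ptgfr lie below all 90-day black ovaries, and 1 black array of 180 days reads 25.7 units for Akr1c18.

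Of the other enzymes of the same steps, Sc5d and Lbr were measured. Sc5d, the desaturase between Ebp and Dhcr7, averaged 61.6 ± 6.43 units in LY and 44.9 ± 4.67 in black ovaries of 180 days (SD, n = 3 each), without overlap (0.46 on the log2 scale, adjusted p = 0.192). Lbr, a lamin B receptor that shares the C14-reductase activity of Tm7sf2, averaged 25.8 ± 1.55 units in LY and 25.1 ± 1.07 in black ovaries of 180 days (SD, n = 3 each). Its log2 difference of 0.04 had a 95% interval of -0.19 to 0.27, which ended below that of Tm7sf2 (0.40 to 1.15). The dimmer Lbr probe gave 0.21, with an interval of -0.24 to 0.65 that overlapped that of Tm7sf2. Tm7sf2 and Lbr were not tested against each other.

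The earlier enzymes of the route, from acetyl-CoA to farnesyl diphosphate, were measured by 6 of 8 genes of the list. All 6 lay without overlap above the black arrays at 180 days (14.2% of all probes), and 4 passed the test as higher (0.0415% of all probes), with none lower. Idi1, which isomerizes isopentenyl diphosphate, averaged 10.5 ± 2.15 units in LY and 3.98 ± 0.718 in black ovaries, and Fdps, which makes farnesyl diphosphate, 146 ± 2.22 and 80.6 ± 5.17 (SD, n = 3 each). Their median difference was 0.90 on the log2 scale at 180 days and -0.30 at 90 days, beside 0.77 and -0.33 for the squalene to cholesterol enzymes. At 90 days none passed and 3 of 6 lay without overlap below the black arrays (9.56% of all probes).

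Genes around the pathway were more mixed at 180 days. Of 6 genes of the SREBP-2 machinery none passed, with Srebf2, which encodes the factor, at 3.78 to 4.00 units in LY and 2.75 to 2.94 in black ovaries (0.46 on the log2 scale, adjusted p = 0.133) and Mbtps1, a protease that activates it, at -0.54. Insig1 had the largest difference of the 6 (1.06, adjusted p = 0.305 from limma). Its values lay near the limit of sensitivity and overlapped, at 0.381 to 0.480 units in LY and 0.0981 to 0.386 in black ovaries. Of the other targets of SREBP-2, 2 were measured, and Tmem97 rose (0.69, adjusted p = 0.0289 from limma) while Npc2 had 0.15. Of 6 measured partners that supply electrons or NADPH, malic enzyme Me1 rose (0.92, adjusted p = 0.0348 from limma). The branches that lead from farnesyl diphosphate to other products (5 genes tested) had a median of 0.03 and values from -0.13 to 0.12, with none past the test. Of 5 measured targets or partners of LXR, the sensor of sterol excess, none passed (median -0.01), and of 5 genes of steroidogenesis none passed (median 0.49), with Star at 0.91 (adjusted p = 0.168).

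To find genes that run with the members, the log2 values were centred within each age and correlated with the mean profile of the 10 genes over the 12 arrays. Both genotypes at both ages enter this profile, so a gene that differs between genotypes in the same way scores highly, and the values are a description. Among the other genes Mvd, the mevalonate diphosphate decarboxylase, was the most alike (r = 0.982), followed by Gimap4 (0.966), Mrap (0.957), Aacs (0.956), Tfap2a (0.952), Sec14l1 (0.948), Epn1 (0.942), Tfrc (0.940), Elovl5 (0.936) and Glrx5 (0.933). Mrap, an accessory protein of melanocortin receptors, and Aacs, acetoacetyl-CoA synthetase, had log2 differences of 0.86 and 0.94 at 180 days (adjusted p = 0.0512 and 0.0990). Gimap4, a small GTPase, had a difference of 0.24. Each member was also set against the mean of the other 9. Lss (r = 0.959) and Msmo1 (0.958) followed the others most closely, and Hsd17b7 (0.454) and Dhcr7 (0.311) least.

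Within groups the members moved together only in part. After the group means were taken off, 32 of the 45 pairs of members correlated above 0 over the 12 arrays, with a median r of 0.26 and a range from -0.58 (Ebp and Dhcr7) to 0.81 (Msmo1 and Nsdhl). LY replicate 2 of 180 days lay below its group mean in all 10 members (0.23 below on average, log2), and LY replicate 3 of 180 days above it in all 10 (0.16 above). On the remaining arrays between 3 and 8 members lay above the group mean.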

How the data were processed

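Whole-ovary RNA of 12 mice was hybridized to one-colour CodeLink arrays, 1 array per mouse. The authors scanned the slides with GenePix, corrected the background in the CodeLink software and normalized each slide to its 50th percentile in GeneSpring, and the deposited values are these linear intensity values. The methods also name a per-gene median step, which these values do not carry. Here arrays were rescaled to a median of 1 and put on the log2 scale with a floor of 0.01 units, on which differences of dim probes depend. The platform annotation names 1 gene for 21615 of 36227 probes, several for 681 and none for 13931. The 4 group means were fitted with limma (3.58.1, R 4.3.3) (residual degrees of freedom 8), with the Benjamini-Hochberg adjustment over 31359 probes. The replicates are separate mice, and their number limits the precision. An exact permutation test of 3 against 3 cannot go below 0.1 and was not used. A gene with several probes was read from its brightest probe.

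The members, the gene lists and the tests were chosen with earlier results of these data known. The text names every member, Sc5d and Lbr, agouti and Raly, up to 4 genes of each other list by unadjusted p at 180 days, and the 10 genes most like the members. Gene names and promoter sequences follow RefSeq on GRCm38.p6, and the motifs were chosen after the data had been seen. The procedure was tried on simulated data with independent normal noise, for the 180-day comparison only, and the outcome is not given here. Alternatives were other floors, filters and scalings, a trend, array weights, 1 age alone, the methods' t-test, a replicate block and leaving out each array.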

Additional observations from a re-analysis of the deposited data

Results flagged for a closer look

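In 4 of the 10 genes every LY array lay above every black array at 180 days and below every black array at 90 days, so the observed difference ran in opposite directions at the 2 ages. The genes were picked by this separation in the same arrays, so their interactions are not independent of it. An interaction with age tests whether the difference changed, not whether its sign did. It was 1.08 on the log2 scale for Fdft1 (standard error 0.23, adjusted p = 0.109), 1.36 for Sqle (standard error 0.24, adjusted p = 0.0889), 1.41 for Lss (standard error 0.21, adjusted p = 0.0718) and 1.35 for Msmo1 (standard error 0.21, adjusted p = 0.0791), all from limma. None passed over all probes, and 1.82% of all probes showed the same opposite separation.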

How the results depend on the processing

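At 180 days all 10 estimates stayed above 0 under every alternative run. The count of members called was 2, among 14 probes called in either direction, and stayed 2 with the deposited values unscaled (14 probes). It became 4 with a floor of 0.2 units (52 probes), with values of at least 0.2 units on all arrays (73), with an intensity trend (111) or with array quality weights (163). With a pseudocount of 0.1 units (33) or the mean of all probes of a gene (27) it became 3. It became 1 with quantile normalization (Lss, 19 probes) and 8 with the methods' t-test without adjustment (4202 probes). It became 0, among at most 2 probes, without a filter, with limma on 1 age, with the methods' t-test after adjustment or with a replicate block. It ran from 0 to 3 when 1 array was left out. At 90 days the count of 0 became 1 (Hsd17b7) with the floor of 0.2 units, with at least 0.2 units on all arrays or with the trend (132, 218 and 200 probes), and 3 with the methods' t-test without adjustment, and stayed 0 when any 1 array was left out. The interaction count of 0 became 3 with the floor of 0.2 units or the pseudocount of 0.1 units and 8 with at least 0.2 units on all arrays or with the trend, and ran from 0 to 1 when 1 array was left out. The counts without overlap ran from 8 to 9 above at 180 days and stayed 0 above at 90 days. Leaving out an array cannot lower such a count. The count of members below at 90 days under these alternatives is not given here. Estimates at 90 days that turned above 0 were those of Cyp51 with quantile normalization (0.073) and with the mean of its probes (0.067), and of Ebp with quantile normalization (0.052) and without black replicate 2 of 90 days (0.011), where leaving out 1 array gave -0.105 to 0.011. A stricter filter leaves fewer probes to adjust over. The cause of the other changes was not tested. The labels do not say whether the replicate numbers pair the mice. Deviations of the same number correlated at -0.07 to 0.15 within an age, and 4 of 6 LY arrays were most like a black array of another number. With so few arrays a group these values cannot settle whether mice were paired. With the replicate block 0 members were called at either age or in the interaction. The dimmest member, Sqle, lay nearest to the limit of 0.2 units.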
